A study of Homo sapiens with 13 samples.

Results

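H3K27ac peaks were compared between wild-type (WT) H1 cells and H1 cells without ZNF263 (KO). The comparison covered 35108 regions of the 136141 in the 7 peak lists of the series: 17537 from the WT H3K27ac library and 17571 from the KO H3K27ac library. All peaks of both lists were taken, and a WT and a KO peak were paired when they overlapped by at least 1 bp. H1 (WA01) is an established human embryonic stem cell line. The KO line, named 1-10 in the labels, carries a homozygous Cas9 deletion of ZNF263 and stands for 1 line. Used for place were 55786 H3K4me3 peaks of the same 2 genotypes, their H3K27me3 peaks, and a FLAG peak list from line 1-10 with ectopic FLAG-tagged ZNF263. No drug, dose or time course is named for these groups. With 1 H3K27ac library per genotype, WT and KO could not be tested against each other. Every difference below describes 2 libraries, and biological change, clonal change and a difference between libraries cannot be told apart. The lists hold no read counts, so depth is unknown, and the 95% intervals given here reflect only how many peaks were counted. Coordinates are hg19, counted from 1. No gene was assigned and no sequence is shown, because no hg19 genome or annotation was used here, and for the same reason stem cell marker genes were not looked up.

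H3K27ac, acetylation of lysine 27 of histone H3, is placed by the acetyltransferases CBP and p300 and marks active promoters and active enhancers. H3K4me3, trimethylation of lysine 4, lies at promoters, so an H3K27ac peak on H3K4me3 is promoter-like and one far from it may be a distal element such as an enhancer. H3K27me3 is laid down on the same lysine by Polycomb repressive complex 2, and a histone tail cannot carry acetylation and methylation there at once. ZNF263 is a C2H2 zinc finger protein with a KRAB domain that binds DNA directly.

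Most acetylated regions had a counterpart in the other genotype. Of the WT peaks, 13227 overlapped a KO peak, and 4310 (24.6%, interval 23.9 to 25.2) did not and are called WT-only. Of the KO peaks, 13206 overlapped a WT peak, and 4365 (24.8%, 24.2 to 25.5) did not and are called KO-only. In 12688 cases a WT peak and a KO peak were each other's single partner, which took in 72.3% of WT peaks and 72.2% of KO peaks, and these are called pairs below. Splitting and joining were rare, since 178 WT peaks (1.02%) met several KO peaks and 197 KO peaks (1.12%) met several WT peaks. Those were wide regions, with median widths of 3989 bp in WT and 4691 bp in KO. Near misses were also few: 185 WT-only and 193 KO-only peaks had a peak of the other genotype within 1 kb. Measured to the nearest peak of the other genotype, the median distance of WT-only peaks was 31.4 kb and that of KO-only peaks 35.4 kb.

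Paired regions differed little in width. Their closeness in position follows in part from pairing by overlap, as regions shifted apart would be counted as exclusive. The median pair measured 2287 bp in WT and 2350 bp in KO, and the overlap made up 86.4% of the span of both peaks together (middle 50% of pairs, 77.6% to 92.2%). The centres lay a median of 117 bp apart. The log2 width ratio, KO over WT, had a median of 0.03 (0.03 to 0.04), and the middle 50% of pairs lay between -0.10 and 0.18. KO was the wider in 56.5% of pairs and WT in 43.4%, and the 5th and 95th percentiles of the log2 ratio were -0.43 and 0.53. A difference of 2-fold or more was seen in 91 pairs wider in KO (0.717% of 12688) and 54 wider in WT (0.426%). Widths were compared only where both lists had a peak, which leaves out the narrower unpaired peaks.

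Pairs without H3K4me3 varied more in width. Where neither genotype had H3K4me3 at the pair, 1.71% of 2452 pairs were 2-fold wider in KO and 1.31% 2-fold wider in WT. Where both had it, 0.393% and 0.207% of 9169 pairs were. Pairs off H3K4me3 were also narrower, with a median of 1940 bp in WT against 2385 bp on it.

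**Figure D1:**
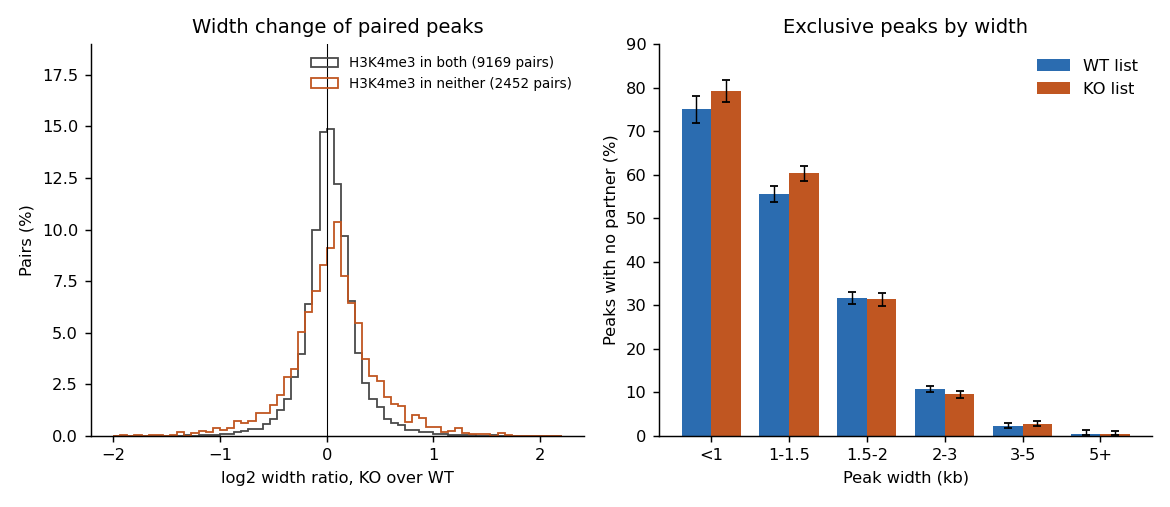
Left, distribution of the log2 width ratio (KO over WT) over pairs with H3K4me3 in both genotypes and in neither, as percent of pairs per bin. Right, percent of peaks without a partner by peak width in each list, with 95% Wilson intervals as error bars; the share drops from 75.2% (WT) and 79.3% (KO) under 1 kb to under 1% at 5 kb or more.

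The 5 pairs with the largest width ratio were 3.16-fold to 4.56-fold wider in KO. The first, on chromosome 2, measured 870 bp in WT (20516265 to 20517134) and 3963 bp in KO (20513663 to 20517625). Its WT peak ended 0.053 kb from the nearest WT H3K4me3 peak, whereas the KO peak overlapped H3K4me3. The second, on chromosome 9, measured 725 bp in WT (35156692 to 35157416) and 2897 bp in KO (35156286 to 35159182). Both regions overlapped the promoter mark in KO only. The third, on chromosome 1, 28740957 to 28742370 in WT, had H3K4me3 in WT and not in KO. The fourth, on chromosome 4 at 135603305 to 135604291, lay 129 kb from H3K4me3. The fifth, on chromosome 6 at 20212131 to 20213083, held a FLAG peak and the other 4 did not.

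Among the 5 pairs with the smallest ratio, WT was 2.96-fold to 3.66-fold wider. On chromosome 3 the WT peak at 41833516 to 41837577 (4062 bp) faced a KO peak of 1109 bp. Another, on the X chromosome at 93302979 to 93305760, lay 373 kb from H3K4me3 and measured 2782 bp in WT and 913 bp in KO. The others lay on chromosome 1 (187598896 to 187601447), chromosome 3 (155085019 to 155088355) and chromosome 12 (86347015 to 86350059). Of these 5 narrowed regions, 1 overlapped H3K4me3 in WT, none did in KO, and none held a FLAG peak. Of all 12688 pairs, 9042 held no FLAG peak.

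The authors' score ranks peaks within a list, so each peak was given a percentile rank in its own list, from 0 for the lowest score to 100 for the highest, and the rank change is KO minus WT. Across the 12688 pairs the Spearman correlation of the scores was 0.77, and the Pearson correlation of the log2 widths was 0.85. The median rank change was 0.08 points, as ranks within lists of like length force it to be near 0, and the median size of the change was 10.3 points. In 49.0% of pairs the ranks differed by 10 points or less. A change of 25 points or more was seen in 1151 pairs higher in KO (9.07%) and 1176 higher in WT (9.27%). Width ratio and rank change went together only loosely (Spearman 0.20 across pairs). All these correlations are across regions of the same 2 libraries, which are not independent replicates.

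**Figure D2:**
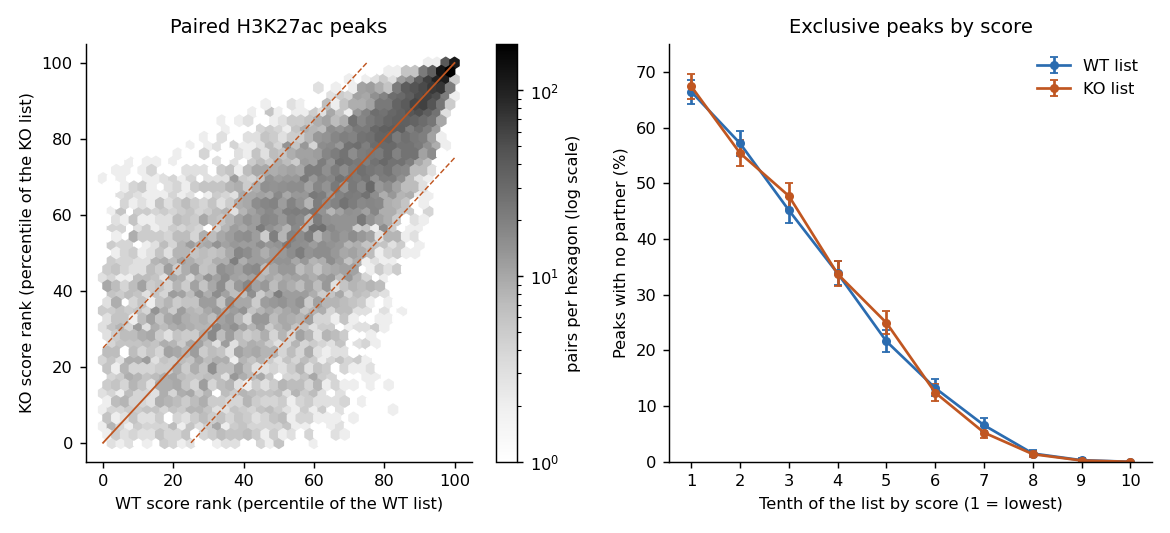
Left, score rank of each pair in the WT list (x, percentile) and the KO list (y, percentile), with pairs per hexagon on a log grey scale, the line of equal rank, and dashed lines at 25 points either side. Right, percent of peaks without a partner in 10 equal classes of each list by score (1 lowest), with 95% Wilson intervals; the share drops from 66.4% (WT) and 67.4% (KO) in class 1 to 0 in class 10.

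Pairs were also named by summed rank, a choice that makes them high in both lists. The 5 pairs with the highest summed rank lay on chromosome 6 (34201452 to 34209699), chromosome 1 (245130778 to 245136295), chromosome 10 (13387567 to 13395272), chromosome 12 (122237099 to 122243356) and chromosome 14 (69257875 to 69266700). Their WT widths ran from 5518 to 8826 bp and their scores were 3100 or more in both lists. The last 3 share their place with 10 other pairs, since 13 pairs had a score of exactly 3100 in both lists. All 5 carried H3K4me3 in both genotypes and a FLAG peak, and none carried H3K27me3. Among all 12688 pairs, 9169 had H3K4me3 in both genotypes, 3646 held a FLAG peak and 11833 had H3K27me3 in neither genotype. In the highest class of mean rank used below, 1523 of the 3460 pairs with H3K4me3 in both genotypes held a FLAG peak.

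The largest rank gains reached over 70 points. The first region, chromosome 11, 7926461 to 7932035, had a score of 56.9 in WT (rank 19.9) and 1043 in KO (rank 96.6), although its width was 5575 bp in WT and 6121 bp in KO. H3K4me3 was absent there in WT, with the nearest peak 75.7 kb away, and present in KO. H3K4me3 was present in KO only at 2 further gains: chromosome 7, 158259908 to 158263233 (rank 5.76 to 76.5), and chromosome 9, 100980098 to 100982392 (rank 10.8 to 81.0). Those on chromosome 3, at 18385460 to 18387018 and at 183901845 to 183904750, had H3K4me3 in both genotypes. None of the 5 held a FLAG peak or H3K27me3. Of all 12688 pairs, 9042 held no FLAG peak and 11833 had H3K27me3 in neither genotype.

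The largest rank losses lay on H3K4me3, as did most WT peaks of like score. At chromosome 13, 49105901 to 49108120, the score was 521 in WT (rank 87.8) and 42.8 in KO (rank 4.83), and the peak was not narrower in KO (2592 bp against 2220 bp). The others were on chromosome 4 (120374783 to 120376775, and 153699659 to 153702356), chromosome 3 (124553105 to 124555685) and chromosome 6 (56109996 to 56112987). Their WT ranks of 75.3 to 82.2 stood against KO ranks of 2.18 to 8.80. All 5 carried H3K4me3 in WT and 4 of them did in KO. Their WT scores fell in classes 8 and 9 of 10, where 87.3% and 90.8% of all WT peaks lay on H3K4me3. Of all 12688 pairs, 9169 had H3K4me3 in both genotypes. None held a FLAG peak, nor did 9042 of all 12688 pairs.

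Rank change differed with the place of the region. Where H3K4me3 was present in both genotypes (9169 pairs) the median rank change was -0.69 points (interval -0.92 to -0.45). Where it was present in neither (2452 pairs) the median was 4.46 (3.63 to 5.53), and 60.6% of pairs ranked higher in KO. Against the 9.07% of all pairs that ranked 25 points or more higher in KO, the share was 14.5% off H3K4me3 and 6.93% on it. In the other direction, against 9.27% of all pairs, the shares were 7.42% and 9.80%. Pairs off H3K4me3 began at lower ranks (WT median 40.03 against 68.7), so pairs were also compared within classes of their mean rank. The order was the same in each class: at mean ranks of 25 to 50 the medians were 6.83 off H3K4me3 and -3.12 on it, at 50 to 75 they were 6.40 and -1.65, at 75 or more 2.98 and -0.22, and under 25 they were 0.99 and -0.42, with overlapping intervals in that lowest class. Among pairs off H3K4me3 the median rank change was 1.28 within 5 kb of a WT H3K4me3 peak and 7.72 at 100 kb or more.

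Pairs with H3K4me3 in 1 genotype were not mirror images. With H3K4me3 in KO only (440 pairs) the median rank change was 11.04 points (8.64 to 13.2), and 77.5% ranked higher in KO. In 426 of these the H3K4me3 peak itself had no WT counterpart. With H3K4me3 in WT only (627 pairs) the median was -0.95 (-2.29 to 0.14), and 47.0% ranked higher in KO. Where H3K4me3 was found in KO only, acetylation thus also ranked higher in KO, while the interval for H3K4me3 in WT only includes 0.

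The change in H3K27ac rank had no counterpart in the width of H3K4me3 where both genotypes had it. Over 8924 pairs that lay on a single pair of H3K4me3 peaks, the Spearman correlation between H3K27ac rank change and H3K4me3 width ratio was 0.002. The median log2 width ratio of H3K4me3, KO over WT, was -0.02 under pairs 25 points or more higher in KO and -0.02 under those 25 points or more higher in WT.

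FLAG peaks mark sites where tagged ZNF263 was found, and paired regions that held one ranked lower in KO. The 3646 pairs with a FLAG peak had a median rank change of -2.24 points (-2.71 to -1.73) and the 9042 without one 1.46 (1.12 to 1.84). Because FLAG peaks lay mostly on H3K4me3, the comparison was repeated there. With H3K4me3 in both genotypes, the median was -2.21 (-2.65 to -1.71) in 3532 pairs with FLAG and 0.30 (0.01 to 0.66) in 5637 without. Of the former, 12.1% ranked 25 points or more higher in WT and 4.87% higher in KO, against 8.37% and 8.21% of the latter. At mean ranks of 25 to 50, where ranks moved most, the medians were -11.4 with FLAG and -0.58 without. The width of these regions did not follow, with a median log2 ratio of 0.03 in both sets. Off H3K4me3, 65 pairs held a FLAG peak and had a median of -3.70 (-8.72 to 1.44), an interval that includes 0.

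**Figure D3:**
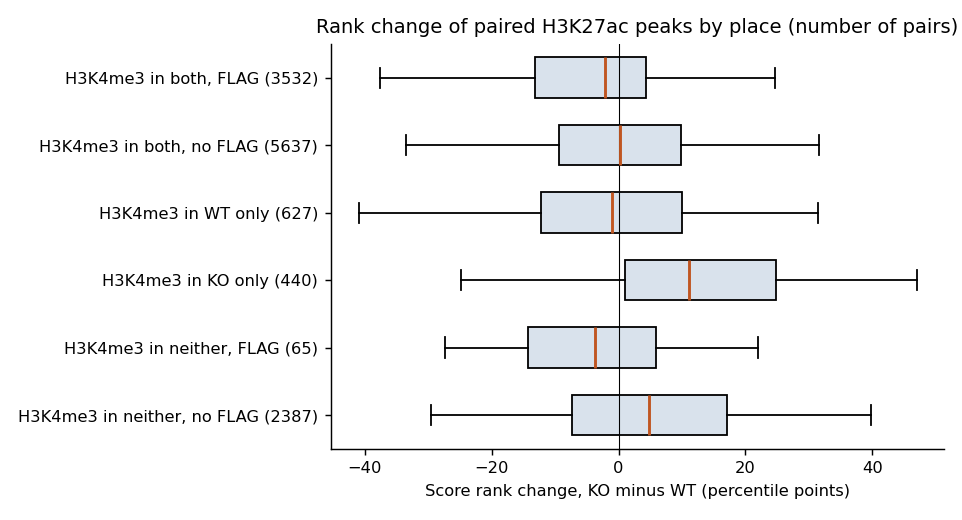
Score rank change (KO minus WT, percentile points) of paired H3K27ac peaks by H3K4me3 and FLAG overlap, with the number of pairs in brackets. Boxes span the middle 50%, orange lines are medians and whiskers run from the 5th to the 95th percentile; the median is 11.04 points with H3K4me3 in KO only and -2.21 with H3K4me3 in both and a FLAG peak.

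Pairs with H3K27me3 in WT also ranked lower in KO. Pairs with H3K27me3 in both genotypes (508) had a median rank change of -2.57 (-4.59 to -1.25), and those with H3K27me3 in WT only (270) of -5.45 (-8.97 to -2.92), against 0.22 (0.04 to 0.48) for the 11833 with it in neither. In the class with H3K27me3 in WT only, H3K27me3 had no call in KO and the rank of H3K27ac was lower there. The level of H3K27me3 was not compared. The 77 pairs with H3K27me3 in KO only had a median of 1.33 (-3.31 to 3.12).

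Exclusive peaks came mostly from the weaker and narrower peaks of each list. Of the WT-only peaks, 91.2% were in the lower 50% by score and 86.0% were narrower than the median of the WT list, and of the KO-only peaks 92.3% and 88.4%. A width of 2 kb or more was found for 744 WT-only and 688 KO-only peaks. Each list was split into 10 equal classes by score. In score class 1, up to a score of 46.8 in WT and 46.6 in KO, 66.4% of WT and 67.4% of KO peaks had no partner. The share was 21.6% and 24.9% in class 5, 1.48% and 1.37% in class 8, and 0 of 1754 WT and 0 of 1758 KO peaks in class 10, where the counts allow up to 0.219% and 0.218%. Width showed the same gradient, from 75.2% of WT and 79.3% of KO peaks under 1 kb to 2 of 537 and 2 of 599 at 5 kb or more. Median widths were 1493 bp for WT-only and 1440 bp for KO-only peaks, against 2294 and 2358 bp for shared peaks of each list. Both lists showed these gradients. A peak without a partner has no call in the other list, which does not show that acetylation was absent there.

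The place of exclusive peaks differed between the genotypes. Of the KO-only peaks, 2919 (66.9%, 65.5 to 68.3) lay off H3K4me3 of the same genotype, against 2048 WT-only peaks (47.5%, 46.03 to 49.0). Shared peaks differed little, with 24.5% of KO and 22.99% of WT peaks off H3K4me3. Weak peaks lay off H3K4me3 more often in either list, so the shares were also read at like score. In score class 1, 75.9% of KO-only and 65.8% of WT-only peaks lay off H3K4me3. In class 5 the shares were 56.8% of 438 and 28.8% of 379, and in class 7 40.2% of 92 and 7.83% of 115. Shared peaks of class 5 stood at 32.2% in KO and 30.3% in WT, so in that class it was the KO-only peaks that lay apart. Shared peaks of class 1 stood at 45.2% in KO and 49.7% in WT, and those of class 7 at 24.0% and 18.1%. WT-only peaks thus lay off H3K4me3 more often than shared WT peaks in class 1 and less often in class 7. KO-only peaks did so more often than shared KO peaks in all 3 of these classes.

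Off H3K4me3, KO-only peaks also lay farther away. Their median distance to the nearest KO H3K4me3 peak was 35.4 kb (33.5 to 37.7), against 25.6 kb (23.3 to 27.5) for WT-only peaks and their WT H3K4me3 peaks. Shared peaks off H3K4me3 stood between, at 32.5 kb in KO and 32.2 kb in WT. A distance of 100 kb or more was found for 686 KO-only peaks (23.5% of those off H3K4me3) and 370 WT-only peaks (18.1%). Few lay just outside a promoter mark, with 68 in each set under 1 kb. With the H3K4me3 list of the other genotype in its place, the medians were 34.7 and 27.1 kb.

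**Figure D4:**
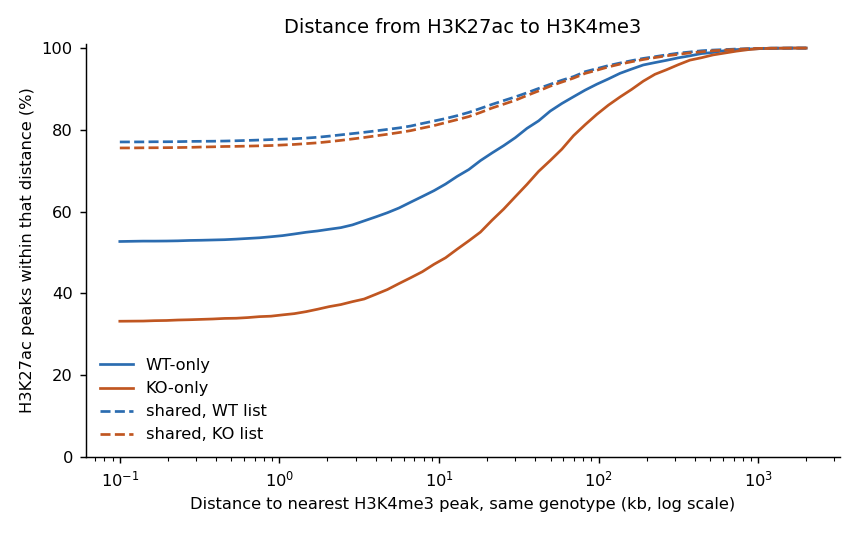
Cumulative percent of H3K27ac peaks (y) within a given edge-to-edge distance (x, kb, log scale) of the nearest H3K4me3 peak of the same genotype, for WT-only, KO-only and shared peaks. The share that overlaps H3K4me3 is 52.5% for WT-only, 33.1% for KO-only, 77.01% for shared WT and 75.5% for shared KO peaks, and the KO-only curve lies lowest.

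Strong exclusive peaks far from H3K4me3 were named by rule, from those in the upper 50% of their list. There were 378 such WT-only peaks, 50 of them off H3K4me3, and 338 such KO-only peaks, 159 of them off H3K4me3. The farthest KO-only peak was chromosome 7, 109230588 to 109232339, 1018 kb from H3K4me3, but a WT H3K27ac peak lay 4.98 kb from it. The KO-only peaks at chromosome 11, 55824803 to 55827318, and chromosome 6, 75029086 to 75030962, had no WT H3K27ac within 599 and 664 kb. Those at chromosome 1, 73498978 to 73501262, and chromosome 14, 82525697 to 82527800, lay 747 and 524 kb from KO H3K4me3, and WT H3K4me3 peaks lay closer, at 45.5 and 18.7 kb. The farthest WT-only peak was chromosome 6, 141708852 to 141711147, 624 kb from H3K4me3. It was followed by chromosome 10, 68137519 to 68139199 (443 kb), chromosome 8, 24366101 to 24367747 (400.5 kb), chromosome 2, 15258939 to 15260937 (138 kb), and chromosome 11, 10064555 to 10067344 (119 kb). None of these 10 regions held a FLAG peak or H3K27me3, but both were rare at exclusive peaks off H3K4me3. A FLAG peak was found there for 68 of 2048 peaks in WT and 30 of 2919 in KO. H3K27me3 of the same genotype was found for 11 and 3 of them.

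On H3K4me3 the promoter mark was usually found in both genotypes where acetylation had a peak in 1 of them, though less often than at shared acetylation. Of 2262 WT-only peaks on WT H3K4me3, 87.6% (86.2 to 88.9) also overlapped KO H3K4me3. Of 1446 KO-only peaks on KO H3K4me3, 81.6% (79.5 to 83.5) overlapped WT H3K4me3. For shared H3K27ac on H3K4me3 the shares were 93.5% (93.04 to 93.99) of WT peaks and 95.4% (94.9 to 95.8) of KO peaks. The H3K4me3 pairs beneath had median log2 width ratios, KO over WT, of -0.02 under WT-only, KO-only and shared H3K27ac alike. Their score ranks differed, as read from H3K4me3 pairs with scores below 3100 in both lists; the others were left out. The median H3K4me3 rank change was -4.69 points (-5.14 to -4.27) beneath WT-only H3K27ac (622 of 1932 pairs). It was 0.06 (-0.52 to 0.54) beneath KO-only (652 of 1151 pairs) and -2.30 (-2.56 to -2.09) beneath shared H3K27ac (3155 of 9100 pairs). Over all 12269 H3K4me3 pairs with scores below 3100 the median was -2.96 (-3.08 to -2.85). Against that median, the change was lower beneath WT-only H3K27ac, and higher beneath shared and KO-only H3K27ac. Beneath WT-only H3K27ac these H3K4me3 peaks were a median of 3022 bp wide in WT, and beneath KO-only H3K27ac 2512 bp, against 3401 bp beneath shared H3K27ac.

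Polycomb marks were more frequent at WT-only than at KO-only acetylation. On H3K4me3, 20.9% (19.2 to 22.6) of WT-only peaks overlapped H3K27me3 of WT and 8.16% (6.86 to 9.68) of KO-only peaks overlapped H3K27me3 of KO, against 7.70% and 5.87% of shared peaks. Those shares used the H3K27me3 list of each genotype, and with 1 list for both sets the gap was smaller. H3K27me3 of WT lay at 11.1% of the KO-only peaks on H3K4me3, and H3K27me3 of KO at 15.5% of the WT-only ones. A direct exchange of the marks was rare. Only 26 of the 2262 WT-only peaks on H3K4me3 (1.15%) carried H3K27me3 in KO and not in WT, while 148 (6.54%) carried it in WT and not in KO. Among KO-only peaks on H3K4me3, 55 of 1446 (3.80%) carried H3K27me3 in WT and not in KO, and 12 (0.830%) the reverse. At WT-only regions H3K27me3 called in WT alone was thus more frequent than H3K27me3 called in KO alone. Shared WT peaks on H3K4me3 leaned the same way, with H3K27me3 in WT alone at 2.67% and in KO alone at 0.726%. The H3K27me3 lists as a whole leaned this way too. In the 4 classes of H3K4me3 density used below, 18.5% to 24.2% of WT H3K27me3 peaks had no KO partner. Of KO H3K27me3 peaks, 8.67% to 15.7% had no WT partner. The excess is thus not particular to WT-only acetylation. Off H3K4me3, 11 of 2048 WT-only peaks carried H3K27me3 of WT, and among 2919 KO-only peaks 3 carried that of KO.

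Along the chromosomes the next KO peak was KO-only somewhat more often after a KO-only peak than after a shared peak. In the WT list the like difference was smaller. The next peak of the WT list was WT-only after 26.1% (24.8 to 27.4) of WT-only peaks and after 24.1% (23.4 to 24.8) of shared peaks. In the KO list the next peak was KO-only after 29.6% (28.3 to 31.0) of KO-only peaks and after 23.3% (22.6 to 24.0) of shared peaks. The difference was 2.01 points in WT and 6.35 points in KO, and with neighbours counted only within 100 kb it was 1.99 and 6.08 points. The interval of the WT difference, 0.53 to 3.53, took in 0 with peaks merged across 3 kb (1.44, -0.09 to 3.01) and in the upper 50% by score (1.62, -0.46 to 3.80). Of the WT-only peaks, 54.9% stood alone between shared peaks or chromosome ends of their list, and 50.3% of the KO-only peaks did. With both lists placed in 1 order, a KO-only peak was followed by another KO-only peak in 24.1% of cases and by a WT-only peak in 18.9%, where the 2 kinds made up 19.9% and 19.7% of all regions. The rank changes of neighbouring pairs were nearly unrelated, with a Spearman correlation of 0.04 between pairs under 20 kb apart (2347 neighbours).

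The longest unbroken runs were short. In WT 3 runs of 6 WT-only peaks were found. A run on chromosome 17, 40551134 to 40719911, spanned 169 kb with scores from 43.4 to 117, and 4 of its peaks lay on H3K4me3 and 1 on a FLAG peak. The others lay on chromosome 17, 64566 to 630633, and chromosome 3, 50373827 to 50844997, each with 4 peaks on H3K4me3. Each of the 3 also held 1 KO-only peak. The longest runs in KO held 7 KO-only peaks. That on chromosome 6, 71890553 to 72639431, spanned 749 kb with scores from 41 to 145, and none of its peaks lay on H3K4me3. That on chromosome 18, 63609767 to 65889252, spanned 2279 kb, had 1 peak on H3K4me3, and was interleaved with 5 WT-only peaks. The run of 6 on chromosome 10, 65875798 to 69155429, had 2 peaks on H3K4me3. It was 1 of 10 KO-only runs of 6, taken for its summed score. Over all 12 KO-only runs of 6 or 7 peaks, 14 of 74 peaks lay on H3K4me3, with 0 to 2 in a run, and 3 runs held a FLAG peak. Of all KO-only peaks, 33.1% lay on H3K4me3 and 7.10% on a FLAG peak. The 3 WT-only runs had 12 of 18 peaks on H3K4me3, against 52.5% of all WT-only peaks. KO H3K4me3 peaks within the KO-only runs ranged from 1 to 16, with a median of 5.08 per Mb of span (0.408 to 19.6), and WT H3K4me3 peaks within the WT-only runs from 9 to 14, or 15.9 to 53.3 per Mb, so the ranges per Mb overlapped.

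KO-only peaks lay more often where promoter marks were sparse, though the 2 kinds of exclusive peak were not separated by density. The median number of H3K4me3 peaks within 500 kb was 10 for KO-only peaks. It was 13 for WT-only peaks and for the shared peaks of either list. Regions were placed in 4 classes by the number of WT H3K4me3 peaks centred within 500 kb. In the sparsest class, with 0 to 8 such peaks, 34.9% (33.6 to 36.2) of KO peaks were KO-only and 25.5% (24.3 to 26.8) of WT peaks WT-only. In the densest, with 22 to 72, 11.9% (10.9 to 13.0) of KO peaks were KO-only and 25.4% (24.2 to 26.8) of WT peaks WT-only. Over all places the KO-only share was thus lower in the densest class, and the WT-only share hardly differed. Taken apart, both on and off H3K4me3 the gradients ran in opposite directions. Off H3K4me3 the KO-only share went from 50.8% to 31.0% and the WT-only share from 36.4% to 49.6%. On H3K4me3 they went from 17.2% to 8.64% and from 16.0% to 21.7%. Paired regions followed the same order, with a median rank change of 3.04 points in the sparsest class and -2.38 in the densest.

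The same tilt was present in the lists of the other marks. KO-only peaks made up 61.0% of all exclusive H3K27ac peaks in the sparsest class and 28.3% in the densest. For H3K4me3 the shares were 48.2% and 19.2%, and for H3K27me3 45.4% and 22.3%. Because the classes count WT H3K4me3 peaks, WT-only H3K4me3 peaks raise their own density. With only H3K4me3 peaks found in both genotypes counted, a choice made after seeing the data, the H3K4me3 shares were 43.1% and 20.2%, those of H3K27ac 60.5% and 28.3%, and those of H3K27me3 44.3% and 21.7%. The tilt was thus present in all 3 marks, and smaller for H3K4me3 when counted in this way. The part that a difference common to the KO libraries has in the acetylation result was not tested.

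**Figure D5:**
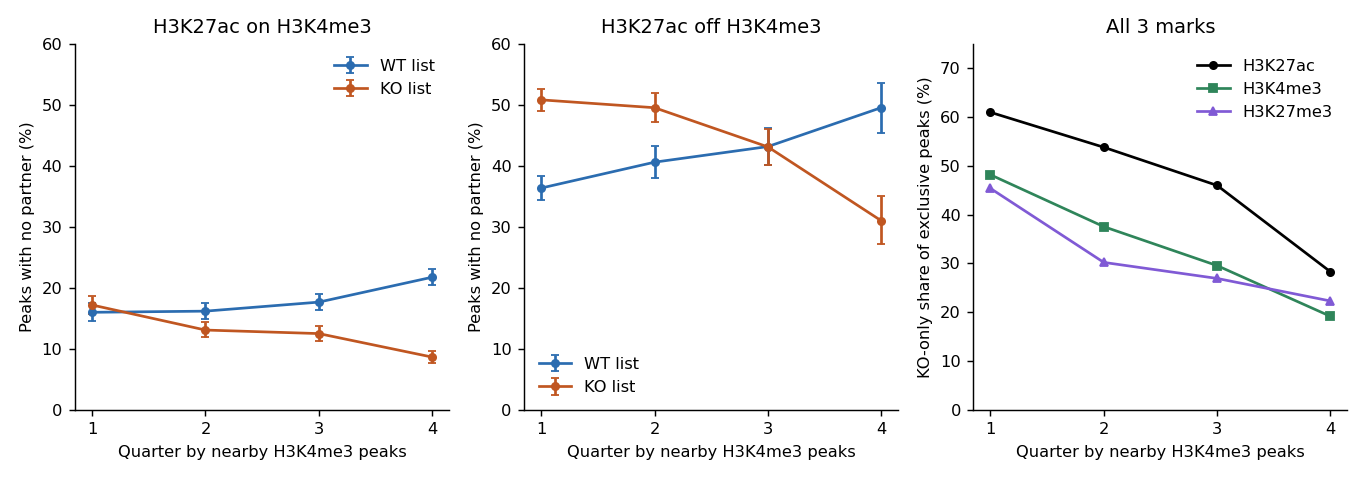
Percent of H3K27ac peaks without a partner on (left) and off (middle) H3K4me3, by class of the number of WT H3K4me3 peaks within 500 kb (1 sparsest, 4 densest), with 95% Wilson intervals. Right, KO-only peaks as percent of all exclusive peaks for each of the 3 marks in the same classes, which drops for all 3 from class 1 to class 4.

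The contrast between paired regions with and without FLAG was present in each density class. With H3K4me3 in both genotypes, the median rank change with and without FLAG was -1.34 and 1.87 points in the sparsest class and -3.53 and -1.74 in the densest. Exclusive peaks on H3K4me3 were read in the same way. In the sparsest class a FLAG peak lay at 30.8% (26.5 to 35.4) of those in WT and 8.76% (6.48 to 11.8) of those in KO. In the densest class the shares were 52.1% (48.7 to 55.5) and 40.8% (35.1 to 46.8), so WT-only peaks held FLAG more often than KO-only peaks at either end of the scale. Shared peaks were not split by density here. On H3K4me3 as a whole, FLAG was found for 41.3% of exclusive and 36.1% of shared peaks in WT. In KO these shares were 19.4% and 36.4%, so KO-only peaks lay farther from shared peaks. With peaks off H3K4me3 included, the exclusive and shared values were 23.2% and 28.3% in WT, and 7.10% and 28.3% in KO.

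Chromosomes differed along the same line. KO-only peaks made up 27.5% (22.6 to 33.1) of the exclusive peaks of chromosome 19, 34.04% (29.1 to 39.3) on chromosome 17 and 35.6% (28.0 to 43.9) on chromosome 22, which are gene-dense chromosomes. They made up 59.7% (55.5 to 63.8) on chromosome 4 and 59.9% (52.8 to 66.6) on the X chromosome. Pairs on chromosome 19 had a median rank change of -2.96 points and those on chromosome 18 of 3.04. WT-only peaks were the smallest share of their list on X, at 14.95%, and KO-only peaks on chromosome 19, at 11.1%.

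In windows of 5 Mb the excess of either kind was spread over many places. Of 548 windows with 20 or more H3K27ac peaks, 293 held more KO-only and 209 more WT-only peaks. The following windows were chosen after their values were seen. The largest WT excess was on chromosome 12, 120000001 to 125000000, with 31 WT-only and 7 KO-only peaks, while its 49 pairs had a median rank change of 0.92. The first 5 Mb of chromosome 7 held 19 WT-only peaks and no KO-only peak, and its 27 pairs had a median rank change of -9.84 points. The largest KO excess was on chromosome 4, 85000001 to 90000000, with 23 KO-only and 8 WT-only peaks and a median rank change of 7.15. The next KO excess, on chromosome 3, 110000001 to 115000000, had 19 and 5 such peaks and a median rank change of -0.62, so the pairs did not always follow the exclusive peaks. Over the first 5 Mb of all chromosomes 29.9% (26.6 to 33.5) of WT peaks were WT-only and 17.1% (14.3 to 20.4) of KO peaks KO-only. Over the last 5 Mb the shares were 26.1% (23.3 to 29.1) and 16.3% (13.8 to 19.1). Away from both ends the shares were 24.3% and 25.5%.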

How the data were processed

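Chromatin of formaldehyde-fixed cells was sonicated and sequenced after immunoprecipitation, per the labels' protocols. Bowtie2, Picard and hg19 are named in the submitters' processing notes. The deposited lists give position, a name that begins with MACS, and a score per peak. No source used here gives the scale of the score. Both H3K27ac lists are labelled with a threshold of 1e-4 and have a lowest score of 40, which is -10 times the log10 of 1e-4. Caller version, input and pooling were not given in the sources used. The labels attach the FLAG list to the endogenous ZNF263 libraries too. The 13 samples form 12 groups by title.

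Pairing, ranks, distances and neighbours were computed in python 3.11.15 with pandas 2.3.3, numpy 2.4.6 and scipy 1.17.1, and figures with matplotlib 3.10.9. Scores served only to rank within a list. Distances ran edge to edge to the H3K4me3 list of the same genotype. Intervals for shares are Wilson's and those of medians are order-statistic intervals. The total of WT peaks that overlapped a KO peak equalled that of bedtools 2.31.1. Distances of WT peaks to WT H3K4me3 differed from it for 0 peaks. In simulated data 200 isolated peaks were made exactly 3-fold wider about their centres and kept from removal. Their 100% recovery at 2-fold was set by that design, so it checks the code and not the sensitivity on these lists. Regions, lists and thresholds were chosen with earlier results of these data known. The rule named the pairs of most extreme rank change, width ratio and summed rank, the longest runs, and the farthest strong exclusive peaks. The density classes, other-mark comparison, windows and chromosome ends were added later.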

Additional observations from a re-analysis of the deposited data

How the results depend on the processing

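Of 140 alternatives for 25 results, 12 of them added after seeing the data, 85 gave a value within the interval of the reported one (within 1.5 times for counts) and 55 moved. No single result changed sign, but 3 orders between genotypes turned. Pairs 25 points higher in KO outnumbered those higher in WT in the upper 50% by score only, and shared KO peaks lay off H3K4me3 less often than shared WT peaks only with the H3K4me3 list of the other genotype. The near-equal distances of shared WT and KO peaks changed order with that list and with H3K4me3 found in both genotypes. The order of KO-only above WT-only peaks in the share off H3K4me3 and in distance held under every alternative run. With only the upper 50% of each H3K27ac list kept, a peak can lose a weaker partner, since fewer peaks enter. WT-only and KO-only peaks then numbered 1805 and 1831, and 78.0% of WT peaks were in pairs. The median log2 width ratio was 0.024, with 0.424% of pairs 2-fold wider in KO and 0.117% in WT. The median rank change was 11.5 points in size, with 11.3% of pairs 25 points higher in KO and 10.9% in WT, and the excess of KO-only neighbours was 3.72 points. Off H3K4me3 then lay 15.5% of WT-only, 35.9% of KO-only, 13.1% of shared WT and 14.0% of shared KO peaks, with median distances of 43.0, 38.005 and 39.3 kb for the last 3. Merging peaks up to 3 kb apart put 75.2% of WT peaks in pairs, with 2.12% of pairs 2-fold wider in KO and 1.85% in WT. It left 22.0% of shared WT and 23.3% of shared KO peaks off H3K4me3 and gave distances of 30.3, 39.5, 36.8 and 36.9 kb for WT-only, KO-only, shared WT and shared KO peaks. Pairing across 1 kb put 68.7% of WT peaks in pairs. Ranks among paired peaks alone gave a median change of 11.1 points in size.

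The shares also moved with the H3K4me3 list. In the order WT-only, KO-only, shared WT and shared KO, the shares off H3K4me3 were 53.8%, 72.9%, 27.9% and 28.0% with H3K4me3 found in both genotypes, with distances of 30.7, 41.2, 37.97 and 37.9 kb. They were 66.3%, 87.0%, 49.9% and 50.6% with the upper 50% of H3K4me3 by score, with distances of 54.5, 76.5, 61.2 and 61.7 kb. With the list of the other genotype they were 52.5%, 68.8%, 24.4% and 23.1%. Distances between centres were 27.9, 37.8, 34.8 and 35.04 kb. With density counted from KO H3K4me3 peaks, the KO-only percent of exclusive H3K4me3 peaks was 39.1 in the sparsest and 22.0 in the densest class. The cause of these moves was not tested. Depth is unknown, so no limit of detection can be given for an exclusive peak. No paired analysis was possible because each genotype has 1 H3K27ac library.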
